A study of Mus musculus with 4 samples.

Results

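Interferon response genes are described here across the cortex of P4htm knockout and wild-type mice after stroke. The 39 genes are a chosen list of classical interferon-induced genes: transcription factors, antiviral effectors, nucleic acid sensors, GTPases and regulators. The list was drawn up with earlier results of these data known. A gene was measured where a probe set of the array names it alone, and the probe set with the highest mean represented it, which gave 37 of the 39 genes among 18194 genes measured. Isg15 and Ifi44 had no such probe set.

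Interferons are cytokines that cells release when they sense viral or displaced nucleic acid, and that neighbouring cells read through the type I, II and III receptors. Receptor-bound Janus kinases activate STAT proteins, which enter the nucleus and switch on genes that carry an interferon-stimulated response element (ISRE) or a gamma-activated site (GAS). In the brain, microglia, astrocytes, endothelial cells and arriving leukocytes can all run this programme.

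P4H-TM, the product of P4htm, is a transmembrane prolyl hydroxylase of the endoplasmic reticulum that acts on hypoxia-inducible factor. C57BL/6J mice aged 3 months, either P4H-TM deficient (KO) or wild type (WT), had the left middle cerebral artery closed permanently (pMCAO), and the cortex was taken 24 h later. The 4 groups were KO ipsilateral, WT ipsilateral, KO contralateral and WT contralateral cortex. Every mouse was operated, so the contralateral cortex stood in for uninjured tissue and no cortex of unoperated mice was compared. RNA of 4 mice was pooled for each condition and put on 1 Affymetrix mouse genome array. With 1 array per condition no spread between replicates can be estimated, so differences are given as values with no test and no p-value.

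All values are log2 expression values, and differences are log2 differences, so 1 is a doubling. A probe set was called detected above 4.80, which is the 95th percentile over 80 probe sets of smell, pheromone and bitter taste receptors, genes taken to be silent in cortex. Where a value lay at or under that limit the difference is a lower bound. A gene was called higher or lower where it differed by at least 1.5-fold (0.585) and was detected on a compared array. As a measure of scatter, the receptor probe sets differed between arrays with an SD of 0.18 to 0.21.

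The 4 arrays had medians of 5.53 to 5.55 and 58.9 to 59.5% of probe sets above the limit. P4htm stood at 8.23 in KO and 10.02 in WT ipsilateral cortex, and at 8.27 in KO and 10.03 in WT contralateral cortex, lower in KO on both sides. Whether its probe set lies in the deleted part was not examined. The neuronal list (10 of 10 genes detected) and the oligodendrocyte list (7 of 7) had no gene past 1.5-fold between the sides.

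Promoters of some members higher in both genotypes are shown first. They were picked because they hold a match to the ISRE, so they do not show how common the match is. Each stretch holds the 160 bases before the annotated gene start, 5′ to 3′ in the direction of the gene, from RefSeq (GRCm38.p6). Capitals mark matches to the ISRE core (TTTC, any 2 bases, TTTC) on either strand, except in Irf1, where they mark a match to the GAS core TTCNNNGAA. Irf1 is shown as the example of a GAS match. It holds no ISRE match and stayed within 1.5-fold, but so did Ifih1, Eif2ak2 and Stat2, which hold an ISRE match. A picked gene thus does not show whether motif and difference go together.

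Ifit1 (chr19:34640729-34640888, plus strand): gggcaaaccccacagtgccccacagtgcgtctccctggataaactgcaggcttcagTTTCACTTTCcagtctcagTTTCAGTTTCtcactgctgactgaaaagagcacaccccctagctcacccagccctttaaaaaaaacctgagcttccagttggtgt
Ifit3 (chr19:34583369-34583528, plus strand): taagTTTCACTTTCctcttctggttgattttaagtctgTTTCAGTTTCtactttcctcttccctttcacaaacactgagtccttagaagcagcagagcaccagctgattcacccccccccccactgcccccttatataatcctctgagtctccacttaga
Gbp2 (chr3:142620503-142620662, plus strand): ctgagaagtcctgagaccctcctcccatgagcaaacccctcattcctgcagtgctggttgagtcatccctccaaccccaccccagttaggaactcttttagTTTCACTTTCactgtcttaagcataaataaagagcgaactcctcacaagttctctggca
Gbp3 (chr3:142559884-142560043, plus strand): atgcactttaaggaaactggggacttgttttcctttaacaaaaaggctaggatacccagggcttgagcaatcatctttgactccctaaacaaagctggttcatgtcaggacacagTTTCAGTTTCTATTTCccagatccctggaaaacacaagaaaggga
Irgm1 (chr11:48871421-48871580, minus strand): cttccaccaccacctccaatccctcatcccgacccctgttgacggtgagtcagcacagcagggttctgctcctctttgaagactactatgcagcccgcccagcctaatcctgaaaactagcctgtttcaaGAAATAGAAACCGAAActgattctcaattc
Rsad2 (chr12:26456453-26456612, minus strand): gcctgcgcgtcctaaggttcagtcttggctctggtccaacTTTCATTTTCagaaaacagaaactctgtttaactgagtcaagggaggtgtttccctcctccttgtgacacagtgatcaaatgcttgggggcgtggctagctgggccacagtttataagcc
Irf1 (chr11:53769854-53770013, plus strand): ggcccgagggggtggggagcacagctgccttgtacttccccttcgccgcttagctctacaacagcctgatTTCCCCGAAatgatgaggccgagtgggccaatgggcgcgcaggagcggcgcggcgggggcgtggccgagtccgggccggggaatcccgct

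The ISRE core matched in both Ifit genes shown, in pairs 104 and 85 bases before the start of Ifit1 and 156 and 122 bases before that of Ifit3. In Gbp3 and Irgm1 a pair of overlapping matches lay close to the start, at 45 and 39 bases in Gbp3 and at 30 and 24 bases in Irgm1. Windows of 250 bases before to 50 bases after the start were at hand for 28 of the 39 genes. Of these, 15 (53.6%) held an ISRE match and 8 (28.6%) a GAS match. Over all 27025 genes with a window the shares were 3.99% for ISRE and 9.55% for GAS.

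Among the members higher in the ipsilateral cortex of at least 1 genotype, 11 of 15 with a window held an ISRE match (73.3%), and among detected members that stayed within 1.5-fold, 3 of 11 did (27.3%). For GAS the shares ran the other way, with 4 of 15 (26.7%) among the higher members and 4 of 11 (36.4%) among the others. Of all 270 genes with a window that were higher in at least 1 genotype, 26 held an ISRE match (9.63%) and 40 a GAS match (14.8%). The 26 include the 11 members, so this share is not separate from theirs. Over all 14453 measured genes with a window the shares were 3.63% for ISRE and 8.57% for GAS. A match is a run of letters, not a shown binding site. A window with no match says only that these letters are not in it, as for Oasl2, Irf9 and Cd274.

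**Figure D1:**
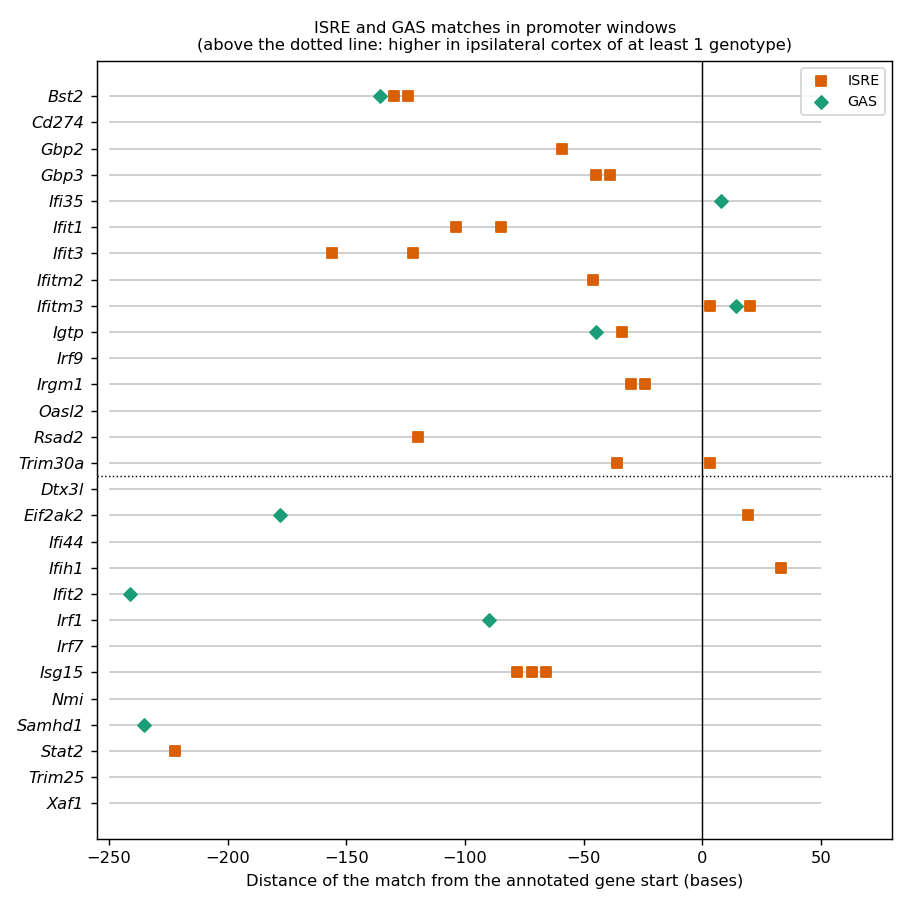
Positions of ISRE (squares) and GAS (diamonds) matches in the promoter windows of 28 interferon response genes, in bases from the annotated gene start. Genes above the dotted line were higher in the ipsilateral cortex of at least 1 genotype, and 11 of these 15 hold an ISRE match against 3 of the 11 detected genes that were not. Isg15 and Ifi44 also lie below the line, but were not measured, so their place says nothing about a difference.

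A large part of the interferon response genes was higher in the ipsilateral than in the contralateral cortex, in both genotypes, and none was lower by 1.5-fold. In KO cortex 17 of the 35 detected members were higher by at least 1.5-fold and 0 were lower, where 1.53% of all detected genes were higher and 0.166% lower. The 17 include Oasl2 on its measured values, and with values under the limit set to the limit the count is 16. In WT cortex 16 of 34 were higher and 0 lower, against a background of 2.41% higher and 0.444% lower. Of the 39 genes, 35 were detected on at least 1 array and 32 on all 4. In KO cortex 97.1% of detected members lay above 0, against 41.7% of all detected genes, and in WT cortex 94.1% against 44.9%. The median difference over the 37 measured members was 0.52 in KO and 0.49 in WT cortex, while over all genes it was -0.01 in KO and 0.00 in WT cortex. Because the list was chosen with earlier results of these data known, these shares and medians are description and not independent support. In bulk tissue, more cells of a type that expresses a gene and more RNA of it per cell cannot be told apart.

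**Figure D2:**
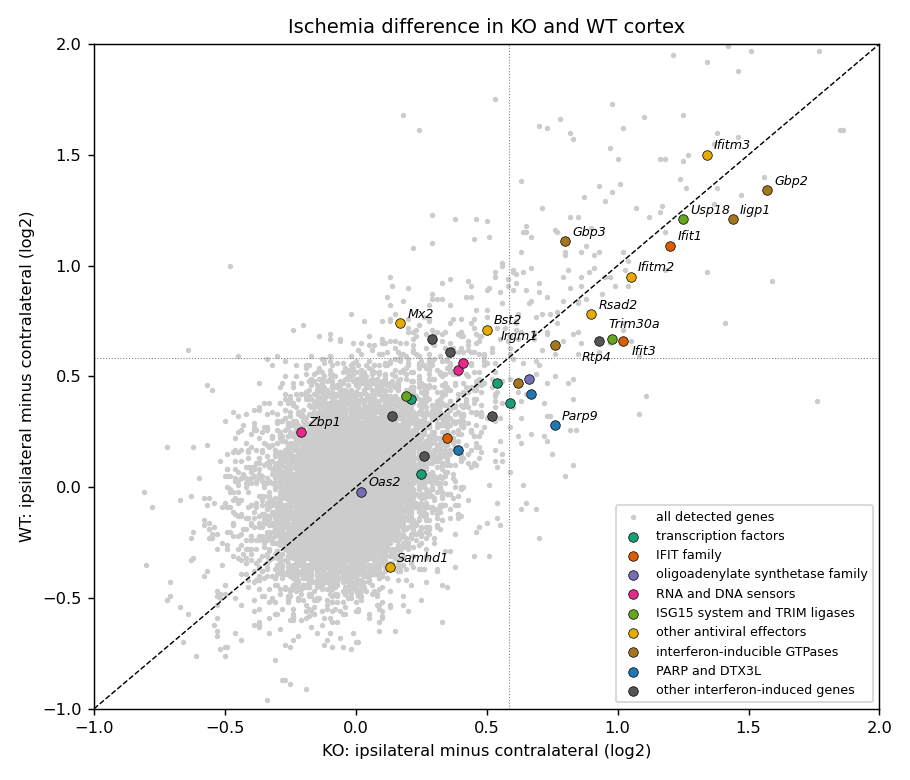
Ipsilateral minus contralateral log2 difference of each detected gene, in KO (horizontal) and WT cortex (vertical), with interferon response genes coloured by role and all other detected genes in grey. The axes stop at -1 and 2, the dashed line is equality and the dotted lines mark 1.5-fold. Most members lie to the upper right of the grey mass, up to 1.57 in KO (Gbp2) and 1.5 in WT cortex (Ifitm3).

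Both comparisons called 12 of the same genes higher: Ifit1, Ifit3, Usp18, Trim30a, Rsad2, Ifitm2, Ifitm3, Gbp2, Gbp3, Iigp1, Irgm1 and Rtp4. They make up 70.6% of the KO list and 75.0% of the WT list of members, where over all genes the 157 shared genes make up 77.3% of the KO list and 49.1% of the WT list. The 2 comparisons share no array. Of these 12 genes, 10 differed more in KO and 2 less on measured values, with a median of 0.12 for KO minus WT. The receptor SD of 0.18 to 0.21 describes single probe sets in a single comparison, so it gives no spread for that median. Whether the median differs from 0 was not tested. Of the 10, Gbp2, Ifitm2 and Irgm1 stood lower in KO than in WT ipsilateral cortex, and lower still in contralateral cortex. The rest of the 10 stood higher in KO ipsilateral cortex, from 0.03 (Ifit3) to 0.56 (Rsad2). Among them Ifit3, Trim30a and Rtp4 stood lower in KO contralateral cortex, at -0.33, -0.18 and -0.17. There Ifit1, Rsad2 and Iigp1 stood higher in KO, at 0.10, 0.44 and 0.03, and Usp18 was under the limit in both genotypes. One of the 10 is Usp18, whose differences in KO and in WT are both lower bounds and have no order. Among the 145 other genes higher in both genotypes, 42 differed more in KO and 101 less, with a median of -0.13. These include 6 genes of the further list of interferon-stimulated genes given below. Of the 6, 4 differed more in KO and 2 less on measured values, with a median of 0.045. Leaning to KO was thus not particular to the members.

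The transcription factors of the response stood within or close to 1.5-fold. Irf9, the DNA-binding subunit of the complex that recognises ISREs, was 6.77 in KO and 6.77 in WT ipsilateral cortex, against 6.18 in KO and 6.39 in WT contralateral cortex. It was higher by 0.59 in KO and by 0.38 in WT cortex, which falls on both sides of the 1.5-fold line. Irf7, which amplifies type I interferon production, differed by 0.54 in KO and 0.47 in WT. Irf1 and Stat2, a GAS-driven activator and the STAT partner of Irf9, also stayed within 1.5-fold. Irf1 differed by 0.21 in KO and 0.40 in WT, and Stat2 by 0.25 in KO and 0.06 in WT.

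The IFIT proteins bind RNA that cells recognise as foreign, and their genes lie close together on chromosome 19. Ifit1 stood at 6.73 in KO and 6.52 in WT ipsilateral cortex, against 5.53 in KO and 5.43 in WT contralateral cortex, a difference of 1.20 in KO (2.30-fold) and 1.09 in WT (2.13-fold). Ifit3 stood at 8.10 in KO and 8.07 in WT ipsilateral cortex, against 7.08 in KO and 7.41 in WT contralateral cortex, 1.02 higher in KO and 0.66 in WT. Its ipsilateral values were nearly level, and the larger KO difference came with the lower contralateral value. Ifit2, directly next to Ifit3, differed by only 0.35 in KO and 0.22 in WT.

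The oligoadenylate synthetase family gave little signal. Oas2, whose product makes the messenger that activates RNase L, differed by 0.02 in KO and -0.02 in WT. Oasl2, another member of the family, was above the limit on the KO ipsilateral array alone, at 4.85, with 4.45 in WT ipsilateral cortex and 4.19 in KO and 3.96 in WT contralateral cortex. Its measured KO difference of 0.66 is counted among the 17, but as a bound it is at least 0.05, and its WT values have no order.

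Sensors of foreign nucleic acid stayed within 1.5-fold on their chosen probe sets. Ifih1 (MDA5), a sensor of long double-stranded RNA, differed by 0.39 in KO and 0.53 in WT, and Eif2ak2 (PKR), which stops translation on sensing such RNA, by 0.41 in KO and 0.56 in WT. A further Eif2ak2 probe set was above the limit on the KO ipsilateral array alone, at 4.86. It gave a measured 0.86 in KO, past 1.5-fold, and 0.17 in WT. Another gave 0.27 in KO and 0.24 in WT. Zbp1, a sensor of Z-form nucleic acid that can start necroptosis, was 5.75 in KO and 5.86 in WT ipsilateral cortex, against 5.96 in KO and 5.61 in WT contralateral cortex. It was the one detected member lower in KO ipsilateral cortex, by -0.21, and stood 0.25 higher in WT. Dhx58 (LGP2) was under the limit on all 4 arrays.

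Of the ISG15 system, Usp18 encodes the protease that removes ISG15 from proteins and restrains the type I receptor. It stood at 6.01 in KO and 5.91 in WT ipsilateral cortex, against 4.76 in KO and 4.70 in WT contralateral cortex, both under the limit. The ipsilateral values were thus at least 2.31-fold higher in KO and at least 2.16-fold higher in WT. Trim30a, a TRIM ligase, stood at 6.18 in KO and 6.05 in WT ipsilateral cortex, against 5.20 in KO and 5.38 in WT contralateral cortex, 0.98 higher in KO and 0.67 in WT. Trim25, which ubiquitinates the RNA sensor RIG-I, differed by 0.19 in KO and 0.41 in WT on its chosen probe set and by 0.65 in KO and 0.74 in WT on a second detected one.

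Ifitm3, which blocks fusion of viruses in endosomes, was 9.64 in KO and 9.84 in WT ipsilateral cortex, against 8.30 in KO and 8.34 in WT contralateral cortex. It differed by 1.34 in KO (2.53-fold) and 1.5 in WT (2.83-fold). Its neighbour Ifitm2 was 7.45 in KO and 7.65 in WT ipsilateral cortex, against 6.40 in KO and 6.70 in WT contralateral cortex, 1.05 higher in KO and 0.95 in WT. The 2 genes are close in sequence, so how far each probe set reads the other is uncertain.

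Rsad2 (viperin), which makes a nucleotide that stops viral RNA synthesis, was 7.42 in KO and 6.86 in WT ipsilateral cortex, against 6.52 in KO and 6.08 in WT contralateral cortex. It was higher on the ipsilateral side by 0.90 in KO and 0.78 in WT. Bst2 (tetherin), which holds budding virus at the cell surface, was 7.45 in KO and 7.27 in WT ipsilateral cortex, against 6.95 in KO and 6.56 in WT contralateral cortex, 0.50 higher in KO and 0.71 in WT. It passed 1.5-fold in WT alone.

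Mx2, of a family of dynamin-like antiviral GTPases, was 5.29 in KO and 5.51 in WT ipsilateral cortex, against 5.12 in KO and 4.77 in WT contralateral cortex. Whether its product is functional in these mice was not examined. The KO difference of Mx2 was 0.17, and the WT difference at least 0.71, as the WT contralateral value lay under the limit. Mx1, whose C57BL/6 allele is known to be defective, was under the limit on all 4 arrays. Samhd1, which breaks down the building blocks of DNA, was the member lowest in WT ipsilateral relative to contralateral cortex, at -0.36, and stood at 0.13 in KO.

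The interferon-inducible GTPases, which attack the vacuoles of intracellular pathogens, were higher almost throughout: 5 of 5 passed 1.5-fold in KO and 4 of 5 in WT. Gbp2 stood at 7.15 in KO and 7.21 in WT ipsilateral cortex, against 5.58 in KO and 5.87 in WT contralateral cortex. Its difference of 1.57 in KO (2.97-fold) was the largest of the members there and ranked 27 of 13264 detected genes, and the 1.34 in WT (2.53-fold) ranked 62 of 13291. A second probe set of Gbp2 gave 1.53 in KO and 1.43 in WT.

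Gbp3, near Gbp2 on chromosome 3, was 6.92 in KO and 7.19 in WT ipsilateral cortex, against 6.12 in KO and 6.08 in WT contralateral cortex, 0.80 higher in KO and 1.11 in WT. It was one of the 2 genes of the shared 12 that differed less in KO, with Ifitm3. The probe sets of Gbp2 and Gbp3 may read each other's transcripts in part.

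Iigp1 encodes an immunity-related GTPase that coats parasite vacuoles. It was 7.24 in KO and 6.98 in WT ipsilateral cortex, against 5.80 in KO and 5.77 in WT contralateral cortex, 1.44 higher in KO (2.71-fold) and 1.21 in WT (2.31-fold). A second probe set of Iigp1 gave a measured 0.92 in KO and 0.85 in WT. Irgm1, a regulator of that family, was 8.10 in KO and 8.16 in WT ipsilateral cortex, against 7.34 in KO and 7.52 in WT contralateral cortex, 0.76 higher in KO and 0.64 in WT. Igtp, another regulator, was 8.17 in KO and 8.07 in WT ipsilateral cortex, against 7.55 in KO and 7.60 in WT contralateral cortex. Its 0.62 in KO and 0.47 in WT fall on both sides of the 1.5-fold line.

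Parp14, Dtx3l and Parp9 are direct neighbours on chromosome 16, and the products of Parp9 and Dtx3l form an ADP-ribosylating ubiquitin ligase complex. Parp9 was 6.15 in KO and 5.90 in WT ipsilateral cortex, against 5.39 in KO and 5.62 in WT contralateral cortex, 0.76 higher in KO and 0.28 in WT. Parp14 was 5.85 in KO and 5.71 in WT ipsilateral cortex, against 5.18 in KO and 5.29 in WT contralateral cortex, 0.67 higher in KO and 0.42 in WT. Dtx3l differed by 0.39 in KO and 0.17 in WT, so all 3 neighbours differed more in KO. A second Dtx3l probe set, detected on all 4 arrays, gave 0.74 in KO, past 1.5-fold, and 0.18 in WT.

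Rtp4, a receptor chaperone with antiviral activity, was 7.65 in KO and 7.55 in WT ipsilateral cortex, against 6.72 in KO and 6.89 in WT contralateral cortex, 0.93 higher in KO and 0.66 in WT. Cd274, which encodes the checkpoint ligand PD-L1, was 5.27 in KO and 5.62 in WT ipsilateral cortex, against 4.91 in KO and 5.01 in WT contralateral cortex. It was higher by 0.36 in KO and 0.61 in WT. Ifi35, whose product pairs with that of Nmi, was 7.49 in KO and 7.78 in WT ipsilateral cortex, against 7.20 in KO and 7.11 in WT contralateral cortex, and differed by 0.29 in KO and 0.67 in WT. The Ifi35 call in WT rests on 1 probe set, as the other 2 gave 0.02 and 0.53. Ifi27, Nmi and Xaf1 differed by 0.14 to 0.52 in KO and 0.14 to 0.32 in WT.

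**Figure D3:**
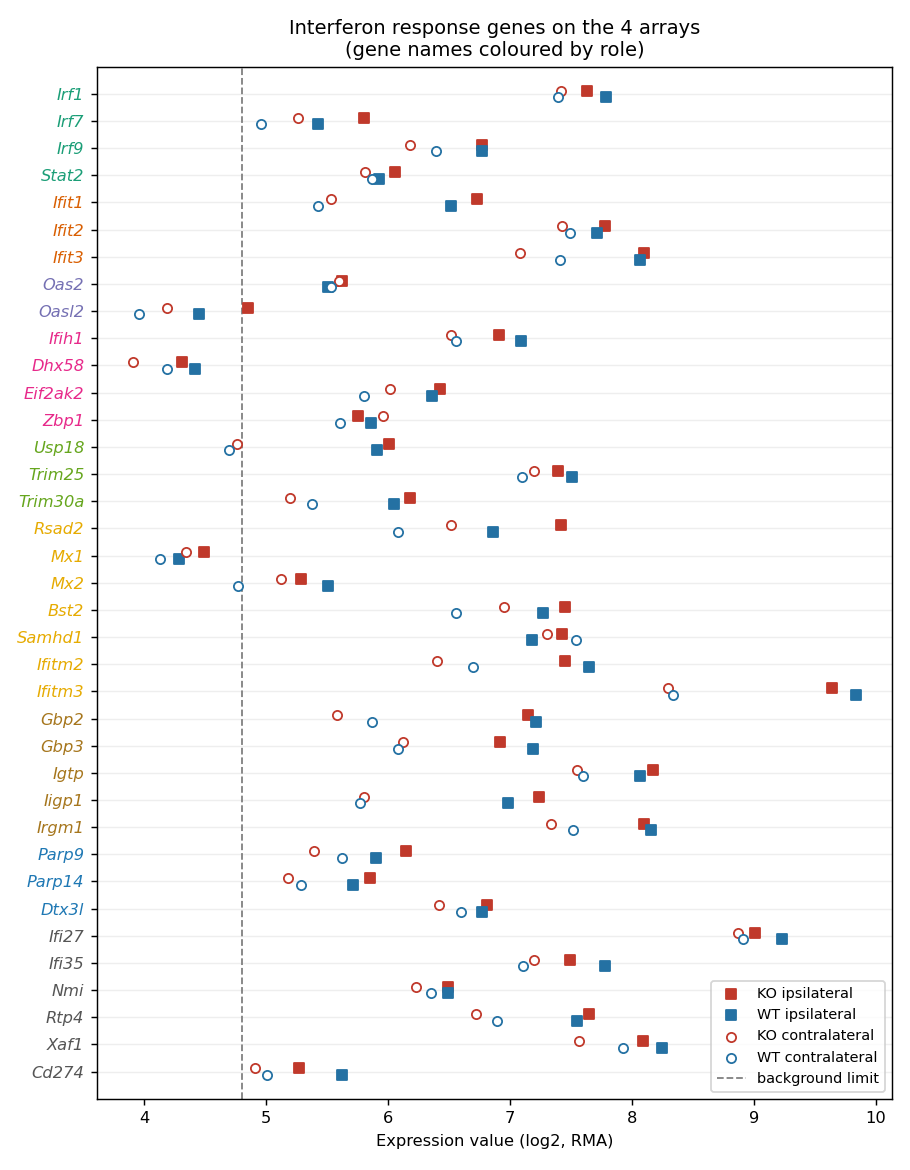
Log2 expression value of each measured interferon response gene on the 4 arrays, with filled squares for ipsilateral and open circles for contralateral cortex, red for KO and blue for WT, and gene names coloured by role. The dashed line is the detection limit of 4.80. Squares lie to the right of circles for most genes, and Dhx58 and Mx1 stay left of the line on all arrays. Positions of different genes are not comparable, as each probe set has its own affinity.

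Between the genotypes, 0 members passed 1.5-fold on either side. In ipsilateral cortex 0 of 35 detected members were higher or lower in KO, against a background of 0.09% higher and 0.578% lower. The median was 0.04, with 20 members above 0 and 15 below. In contralateral cortex 0 of 33 passed, where 0.228% of genes were higher and 0.159% lower, and the median was -0.04, with 16 above 0 and 21 below. Both genotype comparisons share their arrays with the ischemia comparisons, so the values of the 2 kinds are not independent.

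Rsad2 was the member that stood highest in KO relative to WT on both sides, by 0.56 in ipsilateral and 0.44 in contralateral cortex. A second detected probe set of Rsad2 read 6.05 in KO and 5.12 in WT ipsilateral cortex, against 4.50 in KO and 4.53 in WT contralateral cortex. It differed by 0.93 on the ipsilateral side and had both contralateral values under the limit, so the size of the genotype difference depends on the probe set. Irf7 was 0.37 higher in KO on the ipsilateral side and 0.30 on the contralateral side. At the other end, Cd274 stood lowest in ipsilateral cortex, at -0.35, and Xaf1 in contralateral cortex, at -0.36.

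The difference between the genotypes in the ischemia difference was 0.12 in the median, with 24 members above 0 and 13 below. It ran between a measured -0.57 for Mx2, whose WT contralateral value lay under the limit, and 0.49 for Samhd1, and 0 of 35 members passed 1.5-fold, against a background of 0.529% higher and 1.36% lower.

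**Figure D4:**
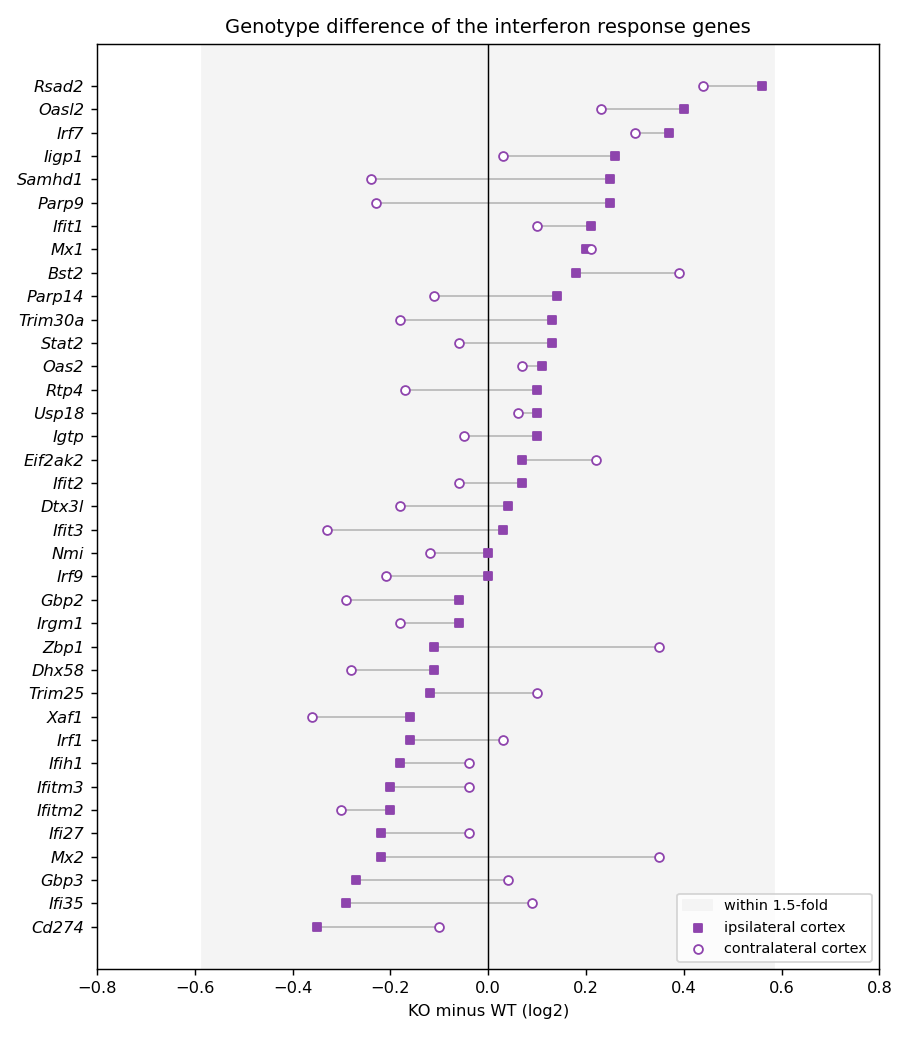
KO minus WT log2 difference of each measured interferon response gene in ipsilateral (filled squares) and contralateral cortex (open circles), ordered by the ipsilateral value. The shaded band is 1.5-fold either way, and every member lies inside it on both sides, with Rsad2 at its upper edge at 0.56.

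Upstream of these genes few pathway members passed 1.5-fold. Of 19 listed interferon genes 10 were measured, of which 2 were detected in the KO and 1 in the WT comparison, so most have no level to compare. Ifnb1 was under the limit on all 4 arrays, at 3.81 in KO and 4.04 in WT ipsilateral cortex, with 3.55 in KO and 3.64 in WT contralateral cortex. Of the 6 receptor subunits 5 were detected and 0 passed 1.5-fold in either genotype. Ifnar1, of the type I receptor, stood at 8.10 in KO and 8.13 in WT ipsilateral cortex, against 8.16 in KO and 8.13 in WT contralateral cortex. The receptor subunits differed at most by 0.22 in KO (Il10rb) and 0.45 in WT (Ifnar2). Signal transducers (7 measured) had 0 genes past 1.5-fold in KO and 1 in WT, Irf8 at 0.59, and the inducing sensors and adaptors (12 measured) had 0 in KO and 1 in WT, Myd88 at 0.77. Some genes of the pathway were not analysed here.

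Of the negative regulators (7 measured), Socs3, an inhibitor of cytokine receptor kinases that other cytokines also induce, was the one gene past 1.5-fold. It stood at 8.71 in KO and 8.89 in WT ipsilateral cortex, against 6.64 in KO and 6.88 in WT contralateral cortex, 2.07 higher in KO and 2.01 in WT.

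A further list of 62 measured interferon-stimulated genes outside the members had 12 of 48 detected genes higher in KO and 8 of 48 in WT, 0 lower in either, and medians of 0.195 in KO and 0.225 in WT. Cxcl10, a chemokine that draws activated T cells, was 6.48 in KO and 6.33 in WT ipsilateral cortex and under the limit on the contralateral side, at least 3.20-fold higher in KO and at least 2.89-fold higher in WT. Ifitm1, of the same family as Ifitm3, differed by 1.51 in KO and 1.97 in WT, and Ifi27l2a by 1.46 in KO and 1.58 in WT. Gbp6 differed by 1.08 in KO and 0.59 in WT, and Psmb8 by 0.99 in KO and 0.91 in WT. Trim34a, a TRIM ligase, differed by 0.80 in KO and 0.05 in WT. It was the 1 of 48 detected genes past 1.5-fold in the difference between the genotypes, at 0.75. Of all detected genes 0.529% were higher in that comparison. The wider list thus held large single differences beside a median below that of the members.

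**Figure D5:**
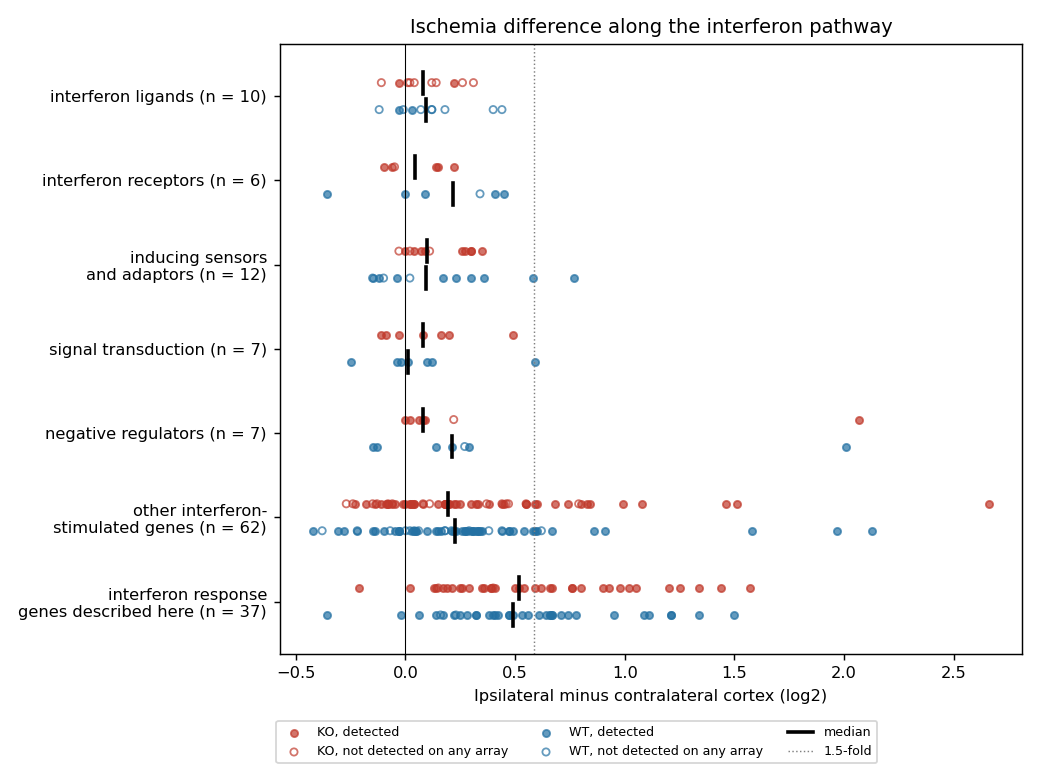
Ipsilateral minus contralateral log2 difference of each measured gene in 6 pathway lists and in the interferon response genes, KO in red above WT in blue. Filled points were detected on at least 1 array, open points on none, and black bars are medians. Medians lie at 0.52 in KO and 0.49 in WT for the interferon response genes and at 0.195 in KO and 0.225 in WT for the other interferon-stimulated genes.

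Markers of other cells moved between the sides as well. Of the monocyte and macrophage list, 4 of 8 detected genes were higher in KO and 5 of 8 in WT, with Lgals3 at least 7.21-fold higher in KO and 8.11-fold higher in WT. Of the neutrophil list 2 of 5 detected genes were higher in KO and 2 of 4 in WT, S100a8 and S100a9. S100a9 stood at 6.96 in KO and 6.74 in WT ipsilateral cortex, against 5.39 in KO and 4.28 in WT contralateral cortex, the WT contralateral value lying under the limit. The microglia list (10 genes detected) had medians of 0.04 in KO and 0.00 in WT, and the endothelial list (8 detected) 0.125 in KO and 0.165 in WT. One microglial gene, Fcrls, was higher, by 0.77 in KO and 0.74 in WT. Of the astrocyte list 1 of 8 detected genes was higher in each genotype, Gfap, by 1.83 in KO and 2.13 in WT. Of the T and NK cell list 4 of 9 measured genes were detected, with 0 higher in KO and 1 in WT, Cd8a. Of the meninges and fibroblast list 3 of 8 detected genes were higher in each genotype, with Col3a1 at 1.25 in KO and 1.68 in WT. Of the choroid plexus list 3 of 8 detected genes were higher in KO and 4 of 9 in WT, with Ttr at 4.59 in KO and 5.35 in WT, and Ccdc153 at -0.36 in KO and 0.17 in WT. Their part in the interferon response differences was not tested.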

How the data were processed

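The authors pooled RNA of 4 mice per condition, hybridized 1 array each and deposited a table of log2 values, for which the submitters' processing notes name RMA. The study's methods name GeneChip Operating System for quantification and GenePattern for normalization. Tool versions: not given in the sources used here. A logarithm of base 2 was assumed from the range of 2.51 to 14.9. Quantile normalization, a step of RMA, would remove a shift shared by all genes.

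Of 45101 probe sets 34958 name 1 gene, 932 several and 9211 none in the platform annotation. The probe set with the highest mean represented a gene. All members may be named. Members past 1.5-fold in a comparison get their value on every array. Pathway and marker genes were mostly named by size of difference, up to 8 per comparison and 2 per marker list. Not every gene with a large difference was named. The members and lists were chosen with earlier results of these data known. Differences, counts and motif matches were computed in Python 3.11.15 with pandas 2.3.3 and drawn with matplotlib 3.10.9, and the counting was tested on simulated data. Alternatives were another choice of probe set, array centring, cyclic loess (limma 3.58.1 in R 4.3.3), other detection limits and a 2-fold threshold. Depth has no counterpart here: 1 array per condition limits the precision.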

Additional observations from a re-analysis of the deposited data

Results flagged for a closer look

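In 4 members the sign differed between groups, by more than the SD of the receptor probe sets on each side. These differences were not tested. The share of all detected genes that meet the same rule was not counted, so the number says nothing particular about the members. Zbp1 stood at -0.21 in KO and 0.25 in WT for ipsilateral minus contralateral cortex, a gap of -0.46. Its second probe set was under the limit on all arrays. For KO minus WT, Mx2 stood at -0.22 in ipsilateral and a measured 0.35 in contralateral cortex, a measured gap of -0.57. The WT contralateral value lay under the limit, so the contralateral difference is at least 0.32. Samhd1 stood at 0.25 in ipsilateral and -0.24 in contralateral cortex, a gap of 0.49, and its 3 other detected probe sets gave 0.03, -0.16 and 0.33 in ipsilateral and -0.08, 0.04 and 0.13 in contralateral cortex. Parp9 stood at 0.25 in ipsilateral and -0.23 in contralateral cortex, a gap of 0.48.

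A probe set shared by Isg15, the ubiquitin-like modifier that Usp18 removes, and Gm9706 was outside the comparisons because it names 2 genes. It read 7.44 in KO and 7.48 in WT ipsilateral cortex, against 6.29 in KO and 6.02 in WT contralateral cortex. The ipsilateral side was higher by 1.15 in KO and 1.46 in WT, and which of the 2 genes gave the signal cannot be told apart.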

How the results depend on the processing

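Of 40 recomputed counts of members past the fold threshold 36 stayed within 1.5 times of the reported count. Most of these belong to comparisons with a reported count of 0, where staying at 0 counts as unchanged. The ischemia counts ran from 7 to 20 in KO (reported 17) and from 6 to 17 in WT (reported 16). Of 25 recomputed medians 22 moved by less than the receptor SD over the square root of the number of members. No count or median changed its direction. With a 2-fold threshold 7 members were higher in KO and 6 in WT ipsilateral cortex, against 0.565% of all detected genes in KO and 0.798% in WT. With the probe set of the largest range, 1 member passed 1.5-fold between KO and WT ipsilateral cortex (Rsad2) and 2 in the difference between the genotypes (Eif2ak2 and Rsad2), where 0.423% and 1.95% of all detected genes were higher under that choice, against 0.09% and 0.529% in the reported one. The ischemia medians then were 0.62 in KO and 0.53 in WT. The WT median was 0.545 over detected members only. With values under the limit set to it, an alternative added after seeing the data, 16 members were higher in KO, without Oasl2, and 16 in WT.

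Of 14 further detected probe sets of 10 members, 13 had the same sign as the chosen one in each ischemia comparison, 11 of 14 in the ipsilateral and 5 of 14 in the contralateral genotype comparison. On their own, the other probe sets gave 49 of 96 values that moved by more than the receptor SD. No paired analysis was possible because there was 1 array per condition, and no array could be left out.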
